A study of Drosophila melanogaster with 7 samples.

Results

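The 37 genes of the Drosophila mitochondrial genome that the count tables list were followed across the single cells of midgut tumors. They were taken as all features whose FlyBase symbol starts with mt:, 37 of 17619 feature entries, and comprise 2 rRNAs, 13 mRNAs and 22 tRNAs. Every deposited cell was used, including cells with more than 15% of their unique molecular identifiers (UMIs, counted RNA molecules) on these genes. Tumors had been induced in flies carrying yw,HS-flp, HS-mflp5 with esg-gal4,UAS-flybow and FRT82B,Tub-Gal80, crossed with yw,HS-flp flies carrying UAS-RasV12 and FRT82B,Apc2N175K,ApcQ8. A heat shock of 2 h at 37°C at 2-3 days after eclosion recombined the chromosomes in single cells, so that progeny lost both Apc homologs and expressed RasV12 from the progenitor driver esg-gal4. Cells were taken at least 21 days later from flies with GFP visible in the abdomen. All samples share this genotype, no healthy gut was profiled here, and the comparisons are therefore between cells of the same tumor. There were 6 libraries of 1 tumor each (Tind1 to Tind6) and a library of 6 tumors pooled (Tgrp), which is given beside the 6 tumors and enters no test. The study lists Tind3 as the oldest of these tumors, and the part of tumor age was not tested.

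The mitochondrial genome of animals is a small circle that is transcribed into long RNAs from both strands, which are cut at the tRNAs into rRNAs, mRNAs and tRNAs. Its mRNAs encode core membrane subunits of the respiratory chain, and all other subunits come from the nucleus. Complex I (NADH dehydrogenase) and complex III pump protons while passing electrons on, complex IV (cytochrome c oxidase) reduces oxygen, and complex V is the ATP synthase. The mitochondrial rRNAs, lrRNA and srRNA, form the ribosome that makes these proteins inside the organelle.

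The 7 libraries held 9914 cells and 20387756 UMIs, of which 1851616 lay on mitochondrial genes. An individual tumor had between 493 and 2273 cells and a median of 268 to 2495 UMIs per cell, with Tind3 the shallowest and Tind4 the deepest. Tind4 and Tind5 shared 116 cell barcodes, where no other library pair shared more than 3. The progenitor factor esg had a UMI in 7.53% to 31.4% of the cells of a tumor, and its part in any difference below was not tested.

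Across the genome (release 6, chromosome named mitochondrion_genome, coordinates of the Ensembl annotation), the members run in clusters. On the plus strand lie ND2 (mt:ND2, 240 to 1263), CoI (mt:CoI, 1474 to 3009), CoII (mt:CoII, 3083 to 3767), ATPase8 (mt:ATPase8, 3907 to 4068), ATPase6 (mt:ATPase6, 4062 to 4736), CoIII (mt:CoIII, 4736 to 5524), ND3 (mt:ND3, 5608 to 5961), ND6 (mt:ND6, 9971 to 10495) and Cyt-b (mt:Cyt-b, 10499 to 11635). The minus strand carries ND5 (mt:ND5, 6409 to 8125), ND4 (mt:ND4, 8207 to 9545), ND4L (mt:ND4L, 9545 to 9835) and ND1 (mt:ND1, 11721 to 12659), followed by lrRNA (12735 to 14058) and srRNA (14131 to 14916). ATPase8 and ATPase6 overlap by 7 bases, and ATPase6 with CoIII and ND4 with ND4L by 1 base. Reads that touch both genes of such a pair may be split or lost, and the count depends on where a molecule is primed. The levels of ATPase8 and ND4L are therefore uncertain, and the part of either was not tested. The 9 mRNAs of the plus strand made up 80.6% ± 3.04 of the mitochondrial mRNA UMIs (SD, n = 6 tumors).

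The large rRNA dominated the mitochondrial counts in every library. Mitochondrial genes took 7.49%, 9.70%, 16%, 8.81%, 12.2% and 14.3% of all UMIs in Tind1 to Tind6, and 9.63% in Tgrp. Tind3 and Tind6 were the highest and Tind1 the lowest. lrRNA alone made up 70.1%, 70.1%, 64.8%, 65.9%, 77.8% and 62.3% of these mitochondrial UMIs, and 66.5% in Tgrp. srRNA made up 2.26% ± 0.72, the mRNAs 29.0% ± 5.27 and all tRNAs 0.210% ± 0.143 (SD, n = 6 tumors). The ratio of lrRNA to srRNA UMIs was 46.9, 36.8, 24.0, 42.0, 30.1 and 18.8 in Tind1 to Tind6 and 22.5 in Tgrp. Both rRNAs are parts of the same ribosome. The assay, however, counts molecules primed at A-rich stretches, and its UMIs are no measure of the molar ratio of the rRNAs.

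Per mRNA UMI, the libraries held between 1.93 and 4.13 rRNA UMIs. The values were 2.53, 2.59, 2.10, 2.08, 4.13 and 1.93 for Tind1 to Tind6, and 2.28 for Tgrp. Tind5 stood apart from the other 5 tumors, which lay between 1.93 and 2.59. It had 9.83% of its UMIs on rRNA, second to Tind3, and 2.38% on mitochondrial mRNA, second lowest after Tind1. Without the cells whose barcode Tind4 also had, the ratio of Tind5 was 4.38, and among its cells at or under 15% mitochondrial UMIs it was 3.73.

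**Figure D1:**
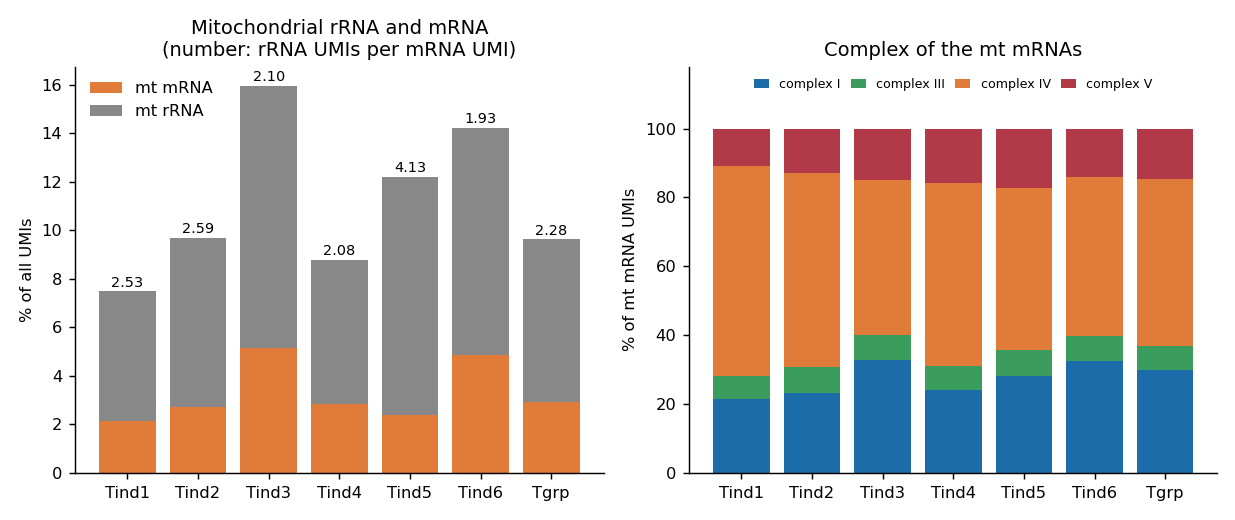
Left, share of all UMIs (%) on mitochondrial mRNA and rRNA in each library, with the rRNA UMIs per mRNA UMI above each bar. Right, share of mitochondrial mRNA UMIs (%) on genes of each respiratory complex. Tind5 has the highest ratio, 4.13, and complex IV takes the largest share in all 7 libraries.

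The mRNAs of cytochrome c oxidase made up about as many UMIs as all others together. Complex IV took 61.1%, 56.3%, 45.0%, 53.2%, 46.9% and 46.3% of the mitochondrial mRNA UMIs in Tind1 to Tind6, and 48.7% in Tgrp. Complex I, with 7 of the 13 mRNAs, took 21.5%, 23.2%, 32.9%, 24.1%, 28.2% and 32.6%, and 29.8% in Tgrp. The tumors with the lowest complex IV shares, Tind3, Tind5 and Tind6, were those with the highest complex I shares. They also had the lowest median UMIs per cell, and the part of depth was not tested. Complex V took 14.3% ± 2.25 and complex III, which has Cyt-b as its only mitochondrial gene, 7.16% ± 0.378 (SD, n = 6 tumors).

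Within the complexes the genes differed in how evenly they were represented. CoII, the subunit that receives electrons from cytochrome c, was the most even mRNA, at 12.2% ± 0.445 of mitochondrial mRNA UMIs, a coefficient of variation of 3.64% over the 6 tumors. Cyt-b followed with a coefficient of variation of 5.28%. CoIII ranged more widely, with 27.1%, 24.7%, 17.2%, 20.1%, 17.4% and 17.7% in Tind1 to Tind6. ND2 was among the most variable, at 2.44%, 2.91%, 5.33%, 3.05%, 3.82% and 4.95%, so that Tind1 was lowest and Tind3 highest. Only ND4L, with 0.279% ± 0.0911, had a larger coefficient of variation, 32.7% against 31.3% for ND2.

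Per kb of gene, the order of the levels was headed by lrRNA at 58720 ± 15933 CPM per kb (UMIs scaled to a common library total and divided by gene length; SD, n = 6 tumors). CoIII followed at 8399 ± 2308, ATPase6, the proton channel subunit of the ATP synthase, at 6994 ± 2946, CoII at 5947 ± 2233 and CoI, the catalytic subunit, at 3905 ± 1140. lrRNA exceeded CoIII in 6 of 6 tumors, by 2.81 ± 0.49 on the log2 scale. CoIII and ATPase6 did not differ beyond their spread (log2 ratio 0.33 ± 0.50), nor did ATPase6 and CoII (0.20 ± 0.25). Per kb, CoII exceeded CoI in all 6 tumors, with a log2 ratio of 0.58 ± 0.17. Without the division by length the order was the reverse in all 6. CoI then had 18.5% ± 2.31 of mitochondrial mRNA UMIs against 12.2% ± 0.445 for CoII. UMIs count molecules, so the order per kb here and below can depend on that division.

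srRNA had 3513 ± 1964 CPM per kb, a level below the mean of each oxidase mRNA and nearest to that of CoI. The complex I mRNAs and Cyt-b came next. ND3 and Cyt-b, at 2258 ± 1184 and 2111 ± 845 CPM per kb, and ND1 and ND5, at 1851 ± 1009 and 1827 ± 1091, lay within their spread of each other. ND4 had 1349 ± 601, ND2 1340 ± 926 and ND6 1118 ± 693 CPM per kb. ATPase8 and ND4L, the shortest mRNAs, were lowest. ATPase8 reached 1.82 ± 0.432 UMIs per 100 UMIs of ATPase6, with which it shares a transcript in flies, and ND4L 5.26 ± 1.64 UMIs per 100 UMIs of ND4.

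**Figure D2:**
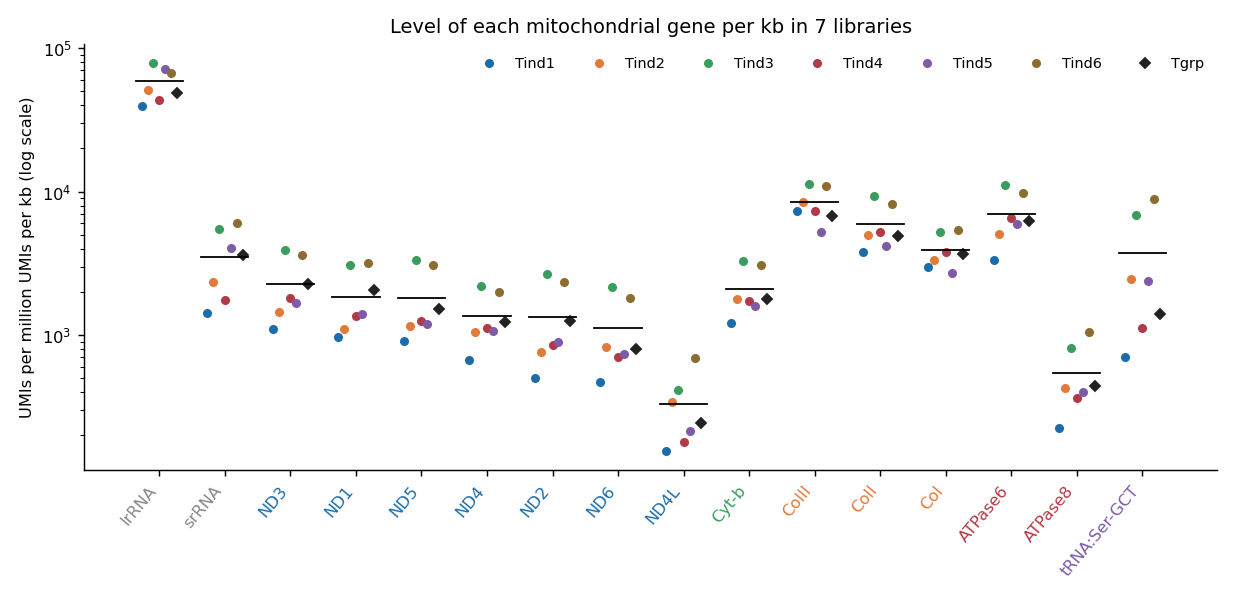
CPM per kb of gene (log scale) for the 2 rRNAs, the 13 mRNAs grouped by complex and mt:tRNA:Ser-GCT. Circles are the 6 tumors, diamonds the pooled library and bars the mean of the 6 tumors. The lrRNA lies above all other genes, and Tind3 and Tind6 are the 2 highest tumors for all 13 mRNAs.

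Of the 22 tRNAs, 5 had at least 20 UMIs over the 7 libraries, 11 had between 1 and 8 and 6 had none. A total of 0 allows up to 3 counts. mt:tRNA:Ser-GCT (6191 to 6258, plus strand) carried 2034 of the 2224 tRNA UMIs, or 91.5%. Its UMIs came to 708, 2457, 6903, 1123, 2382 and 8937 CPM per kb in Tind1 to Tind6 and 1400 in Tgrp. The gene is 68 bases long, so these values rest on the division by length. Whether the UMIs come from the mature tRNA or from a longer RNA was not tested. Tind3 and Tind6, the tumors highest in mitochondrial mRNA, were also highest here. mt:tRNA:Arg-TCG reached 116 ± 88.9 CPM per kb, and mt:tRNA:Val-TAC, mt:tRNA:Ala-TGC and mt:tRNA:Cys-GCA 31.8 ± 27.7, 31 ± 41.9 and 30.8 ± 27.6, with no UMI of the last 3 in Tind3.

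The spread over cells was set beside that of nuclear respiratory RNA. The nuclear respiratory sum is the sum over 80 nuclear genes with the prefixes ND- (40 genes, complex I), UQCR- (9, complex III), COX (16, complex IV) and ATPsyn (15, complex V). To compare cells at equal depth, 200 UMIs were drawn from each cell that had as many. The variance over the mean, which is 1 for pure counting noise, was 7.07 to 32.4 for lrRNA over the 7 libraries, 3.26 to 12 for mitochondrial mRNA, 1.19 to 4.66 for srRNA and 1.54 to 2.36 for the nuclear respiratory sum. This measure grows with the level, and the means of the 6 tumors were 16.5 lrRNA, 6.98 mRNA, 0.600 srRNA and 2.29 nuclear respiratory UMIs of 200, so it does not rank the genes by how much cells differ. Among such equal draws, rRNA and mRNA counts of a cell had a Spearman rho of 0.309 to 0.778 over the libraries, each over 493 to 3405 cells. Mitochondrial mRNA and the nuclear respiratory sum had a rho of -0.0838 to 0.225. With a mean of only 2.29 nuclear respiratory UMIs of 200, counting noise draws this rho toward 0, so these ranges cannot be compared in strength. The counts of 1 cell come from the same draw and library, so these values are descriptions and carry no test.

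**Figure D3:**
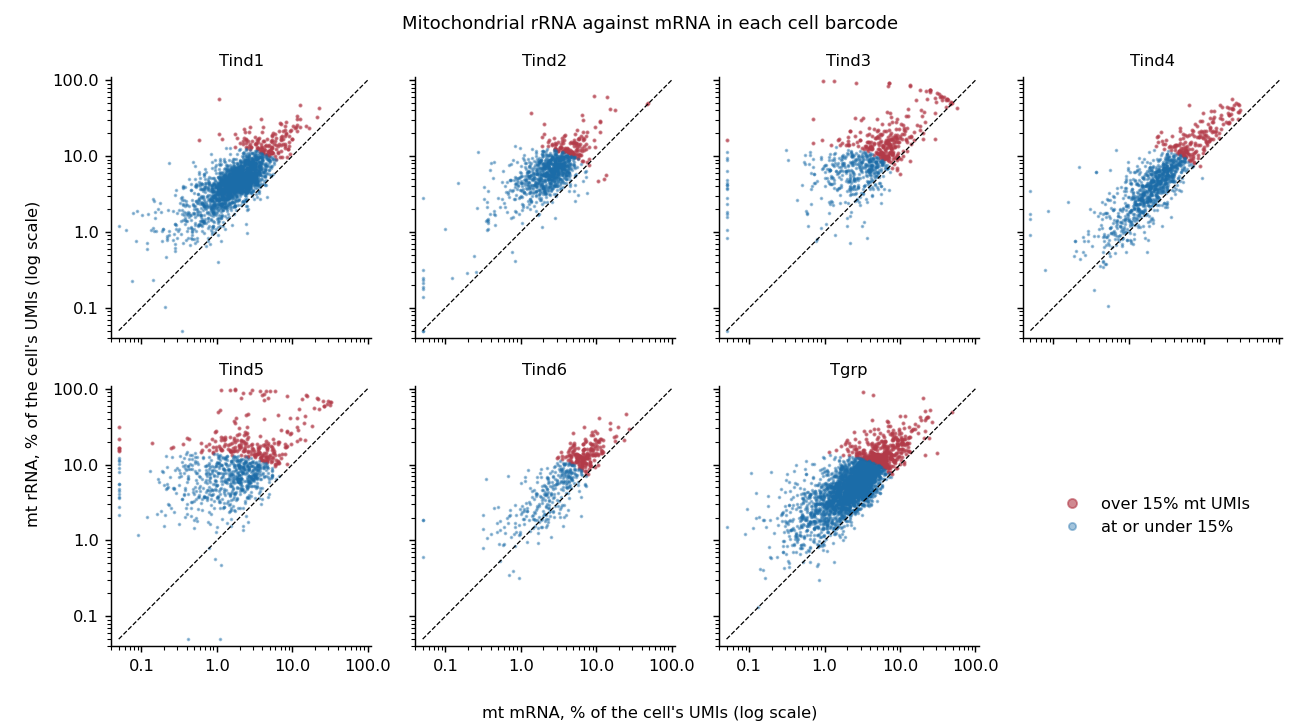
Share of a cell's UMIs (%, log scales) on mitochondrial rRNA against mitochondrial mRNA, 1 point per cell barcode and a panel per library, with cells over 15% mitochondrial UMIs in red, the others in blue and equality dashed. Values below the axis are drawn at its edge. Most points lie above the line, and in Tind3 and Tind5 a band of barcodes lies near 100%.

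The study discarded cells over 15% mitochondrial UMIs. The paper does not list the genes it summed, and its cell counts per cluster do not match the numbers found here. The cells described below therefore need not be those it discarded. By the sum over all mt: genes, 148, 135, 280, 182, 242 and 182 cells of Tind1 to Tind6 and 437 of Tgrp lay over 15%. lrRNA UMIs alone passed 15% in 70, 38, 136, 97, 164 and 54 of these cells and in 161 of Tgrp, 720 of 1606 in all. mRNA UMIs alone passed 15% in 4, 4, 40, 32, 15 and 9 cells of Tind1 to Tind6 and in 20 of Tgrp, so that many cells passed only on the sum of both. In 137 barcodes of the 7 libraries mitochondrial UMIs made up more than 50%, and in 57 more than 90%. Of these 57, Tind3 held 30, Tind5 22, Tgrp 3 and Tind2 2. lrRNA took 71.1% of their UMIs, and they had few nuclear transcripts, with a median of 15 to 40 detected genes per library.

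Cells over 15% had slightly more rRNA per mRNA than the remaining cells of their tumor. The ratio was 2.82, 2.71, 2.13, 2.13, 4.73 and 2.00 in cells over 15% of Tind1 to Tind6, against 2.5, 2.56, 2.05, 2.07, 3.73 and 1.79 in cells at or under 15%. It was higher in 6 of 6 tumors, by 0.14 ± 0.11 on the log2 scale, and Tgrp had 2.44 and 2.22. A two-sided exact permutation test that flipped the signs of the 6 values gave p = 0.03125, the smallest that 6 tumors allow, and the Benjamini-Hochberg adjusted p over the 12 log2 ratios computed was 0.075. At least 8 of the 12 would have to reach this smallest p for any to pass 0.05. Since lrRNA makes up most of the sum that put a cell over 15%, the ratio is not independent of how the cells were divided. Cells over 15% had fewer UMIs in 5 of 6 tumors, with medians of 251.5 to 1055.5 against 288 to 2852 UMIs, and the part of depth was not tested.

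None of the 13 mRNAs had a share that passed between cells over 15% and the other cells after adjustment. ATPase6 had the largest log2 ratio in size. It made up 9.31%, 11.5%, 13.2%, 13.3%, 15% and 11.3% of mitochondrial mRNA UMIs in cells over 15% of Tind1 to Tind6, against 10.7%, 13.1%, 16.7%, 16.3%, 18.2% and 17.9% in the other cells. The share was lower in every tumor, with a mean log2 ratio of -0.33 ± 0.17 (SD, n = 6), and by -0.37 in Tgrp. ND6, a complex I subunit, had a higher share in 6 of 6 tumors, with a log2 ratio of 0.14 ± 0.12. Both had an exact sign-flip p of 0.03125 and an adjusted p of 0.203 over the 13 mRNAs, so 0 mRNAs passed after adjustment and 2 before it. This p is the smallest that 6 tumors allow, and most of the 13 would have to reach it for any to pass. The test could therefore hardly call a single mRNA, and its outcome does not show that the shares were equal. ND1, ND2, ND3 and ND5 had mean log2 ratios of 0.18, 0.18, 0.14 and 0.17 and were above 0 in 5 of 6 tumors each, and ND4L had 0.21 ± 0.38 with 3 tumors above 0. ATPase8 went both ways, lower in 4 and higher in 2 tumors. CoI, CoII, CoIII, Cyt-b and ND4 had mean log2 ratios between -0.02 and 0.03. The nuclear respiratory sum per nuclear UMI was higher in cells over 15% in 2 tumors, Tind3 and Tind6, and lower in 4, with a log2 ratio of 0.06 ± 0.34 (exact sign-flip p = 0.656, adjusted p = 0.716).

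The relation to the nuclear genome was then read in cells with many and with few nuclear respiratory transcripts. From every cell with at least 200 nuclear UMIs, 200 were drawn, and the 33.3% of a tumor's cells with the highest nuclear respiratory sum were called respiration-high and the 33.3% with the lowest respiration-low. Each class held 757, 340, 135, 363, 283 and 160 cells in Tind1 to Tind6 and 1133 in Tgrp. In Tind3 only 407 of 717 cells were deep enough. Mitochondrial RNA did not choose these classes.

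Total mitochondrial mRNA followed the nuclear sum in some tumors only. Per 1000 nuclear UMIs, respiration-high cells had 22.8, 28.5, 62.2, 31.9, 29.8 and 68.4 mitochondrial mRNA UMIs in Tind1 to Tind6, against 23.1, 30.7, 39.2, 31.2, 19.7 and 41.6 in respiration-low cells. The log2 ratio was 0.60 to 0.72 in Tind3, Tind5 and Tind6, between -0.11 and 0.03 in the other 3 tumors and 0.59 in Tgrp. Tind3, Tind5 and Tind6 were also the shallowest tumors, with medians of 268, 544 and 527 UMIs per cell against 1054 to 2495. Their shares of cells over 15% were the largest, at 39.1%, 26.8% and 36.9% against 6.51% to 16.6%. Tgrp had a median of 1267 UMIs and 12.8% of cells over 15%. The part of depth in this split of the tumors was not tested. The mean of 0.31 ± 0.38 (SD, n = 6 tumors) did not pass (exact sign-flip p = 0.188, adjusted p = 0.321). For rRNA the mean log2 ratio was 0.02 ± 0.31 (exact sign-flip p = 0.875, adjusted p = 0.875), with 2 tumors above 0.

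The ratio of rRNA to mRNA was lower in respiration-high cells of every tumor. It was 2.44, 2.41, 1.67, 2.01, 3.18 and 1.93 in respiration-high cells, against 2.68, 2.77, 2.5, 2.12, 4.95 and 2.09 in respiration-low cells of Tind1 to Tind6. Tgrp had 2.12 and 2.49. The mean log2 ratio of -0.29 ± 0.25 had the smallest exact sign-flip p of 0.03125 and an adjusted p of 0.075, and it was largest in size in Tind3 and Tind5.

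The balance of complexes differed between the classes, with complex I higher and complex V lower in respiration-high cells. Complex I took 26.8%, 25.9%, 35.4%, 26.2%, 31.1% and 36.7% of mitochondrial mRNA UMIs in respiration-high cells of Tind1 to Tind6, against 17.1%, 20.5%, 29.7%, 20.1%, 24.3% and 26.7% in respiration-low cells. Its share was higher in 6 of 6 tumors, by 0.41 ± 0.14 on the log2 scale, and Tgrp had 33.3% and 24.8%. Complex V took 9.44%, 12.7%, 13.0%, 13.8%, 15% and 11.2% in respiration-high cells, against 11.9%, 13.2%, 18.0%, 19.0%, 21.0% and 17.4% in respiration-low cells. Its share was lower in 6 of 6 tumors, with a log2 ratio of -0.41 ± 0.20. Complex IV took 49.9% ± 5.25 in respiration-high and 53.1% ± 7.75 in respiration-low cells and was lower in 5 of 6 tumors, and complex III took 7.19% ± 0.427 and 7.11% ± 0.484. Among cells at or under 15% mitochondrial UMIs the complex I log2 ratio was 0.50 ± 0.10, and with classes made within 3 depth bins of each tumor it was 0.38 ± 0.16, above 0 in 6 of 6 tumors each time. These shares are descriptions and were not tested. The fit over all genes below tests the level of single genes, scaled over all genes, and not their share of mitochondrial mRNA.

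**Figure D4:**
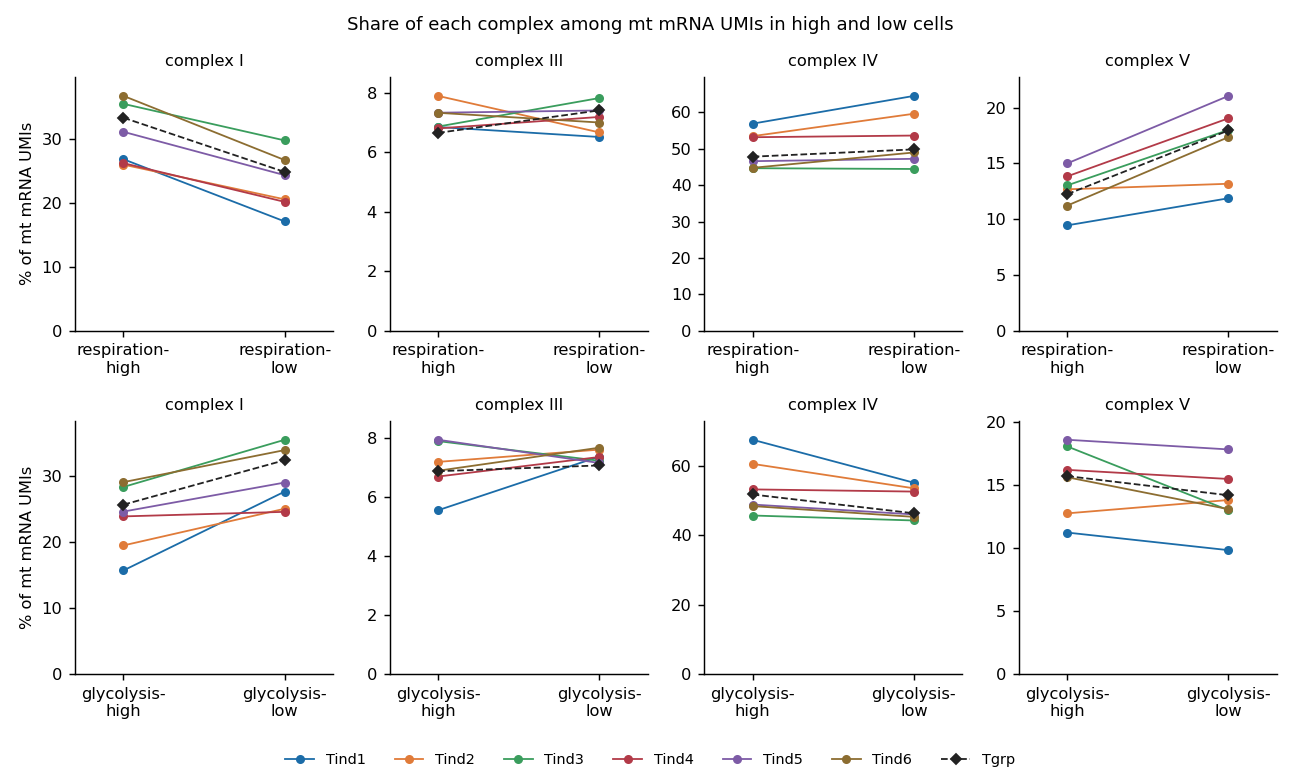
Share of mitochondrial mRNA UMIs (%) on the genes of each complex, in high cells on the left and low cells on the right of each panel, for the respiration classes (top) and the glycolysis classes (bottom). Each line is a tumor, dashed for the pooled library. The complex I share is higher in respiration-high cells and lower in glycolysis-high cells of all 7 libraries.

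UMIs were summed over the cells of each class of a tumor and all genes were fitted together with edgeR's quasi-likelihood test, the tumor as a block and Benjamini-Hochberg adjustment. Of the 37 members, 16 passed the filter on low counts. Between respiration-high and respiration-low cells 8 of these 16 passed an adjusted p of 0.05, 5 higher and 3 lower. Among the 2842 tested genes that did not make the classes, 34.9% passed, 17% higher and 17.9% lower. The median log2 fold change was -0.02 over the 16 members and 0.01 over those genes. The 5 higher members were all complex I mRNAs, ND1, ND2, ND3, ND5 and ND6, and the 3 lower ones were ATPase6, ATPase8 and mt:tRNA:Ser-GCT. Both rRNAs, the 3 oxidase mRNAs, Cyt-b, ND4 and ND4L did not pass. Without Tind6, lrRNA (log2 fold change -0.40, edgeR adjusted p = 0.000476) and srRNA (-0.36, adjusted p = 0.0236) passed as lower in respiration-high cells.

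ND3, a small membrane subunit of complex I, had the largest fold change of the higher genes. It had 544, 602, 1797, 731, 775 and 1715 CPM in respiration-high cells of Tind1 to Tind6, against 269, 398, 612, 461, 398 and 802 CPM in respiration-low cells. The high cells were above the low cells of the same tumor in all 6, while the ranges over tumors overlapped. The log2 fold change was 0.69 ± 0.14 (SE; edgeR, adjusted p = 0.000878). ND1, the subunit next to the quinone site, had 1159, 1156, 3345, 1443, 1605 and 4157 CPM in respiration-high cells, against 697, 875, 1764, 1005, 786 and 1863 CPM in respiration-low cells. Its log2 fold change was 0.52 ± 0.13 (edgeR, adjusted p = 0.00402), again higher in 6 of 6 tumors.

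ND6 and ND2 had log2 fold changes of 0.63 ± 0.16 and 0.56 ± 0.15, with edgeR adjusted p of 0.00432 and 0.00579. ND5, the longest mRNA, had 0.37 ± 0.13 with an edgeR adjusted p of 0.0351, which was 0.145 with DESeq2, 0.0649 with no filter on low counts, 0.0562 without Tind1, 0.160 without Tind3, 0.111 without Tind5 and 0.134 without Tind6. ND4 had 0.23 ± 0.13 and did not pass (edgeR adjusted p = 0.168). It was still higher in 6 of 6 tumors in CPM.

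ATPase6 had 1962, 3248, 6781, 3982, 3910.1 and 6202 CPM in respiration-high cells, against 2479.6, 3515, 6063, 5324, 3653 and 6240 CPM in respiration-low cells. CPM were thus lower in 4 tumors and higher in Tind3 and Tind5. Its log2 fold change was -0.37 ± 0.11 (edgeR, adjusted p = 0.0127), and that of ATPase8 -0.82 ± 0.23 (edgeR adjusted p = 0.00828, DESeq2 adjusted p = 0.0913). ATPase8 had 158 against 131 CPM in Tind3, 67.4 against 51.4 CPM in Tind5 and 179 against 150 CPM in Tind6, higher in respiration-high cells, and was lower in the other 3 tumors. The size of these values depends on the scaling. The edgeR fit scales by trimmed means, and scaling by library size alone moved the median of the other genes to 0.30. With that scaling 8 members passed, all 8 higher and 0 lower, with CoII, Cyt-b and ND4 added to the 5 complex I mRNAs, and ATPase6 had -0.09 (adjusted p = 0.456). This value of ATPase6 lay below the median of 0.30, a difference that was not tested. Without Tind1, 5 members passed, and ATPase6 had an adjusted p of 0.0731 without Tind1 and 0.0560 without Tind4. mt:tRNA:Ser-GCT had -0.71 ± 0.20 (edgeR adjusted p = 0.00873, and 0.0668 without Tind1), and its CPM were lower in 5 of 6 tumors. With no tumor block 0 members passed by edgeR, while 2 had an unadjusted p under 0.05, and DESeq2 with the block called 6.

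**Figure D5:**
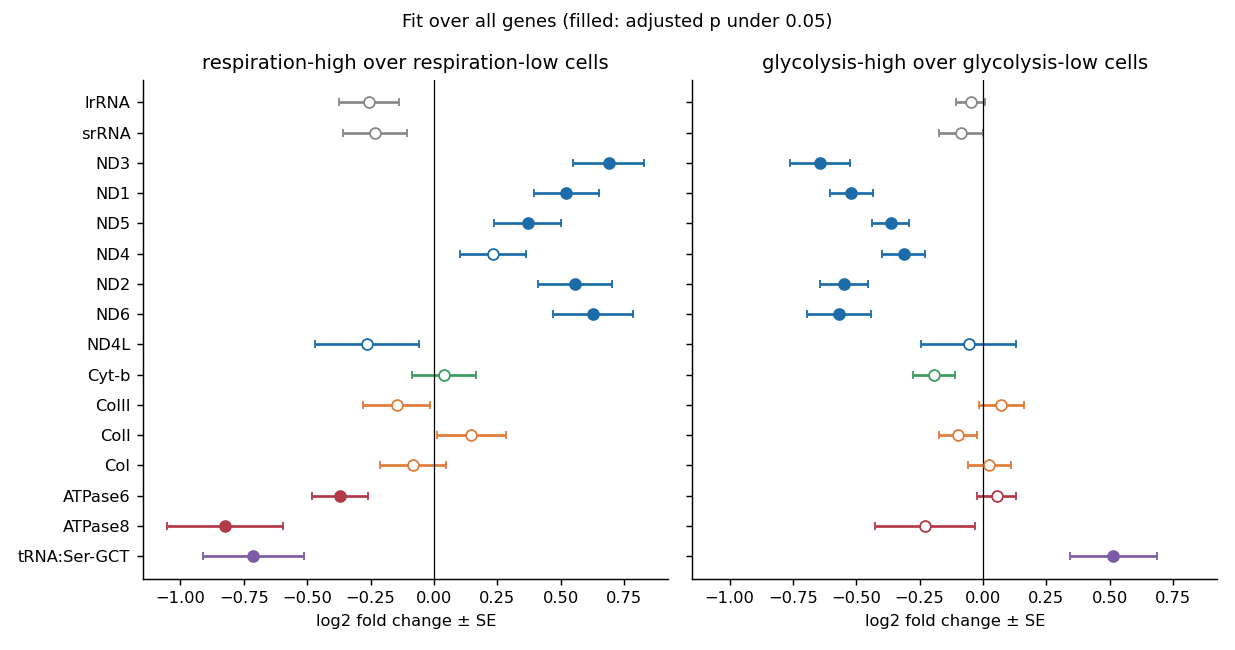
Log2 fold change ± SE of the 16 tested mitochondrial genes from the edgeR fit over all genes, respiration-high over respiration-low cells (left) and glycolysis-high over glycolysis-low cells (right), filled where the adjusted p is under 0.05. On the left 5 complex I mRNAs are filled above 0, and on the right 6 are filled below 0.

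Other measures moved with the same classes. Respiration-high cells were deeper in 6 of 6 tumors, with medians of 481 to 4025 against 379 to 1559 UMIs. Of the marker lists for gut cells and stress, the 11 heat-shock genes summed to 910 to 7553 CPM of nuclear UMIs in respiration-high and 3163 to 15603 in respiration-low cells and were lower in 6 of 6 tumors. The 7 stem cell and enteroblast markers summed to 1066 to 1887 against 670 to 1053 and were higher in 6 of 6, while the 8 division genes were higher in 5 of 6. The 9 enteroendocrine markers were higher in 5 of 6, with 5.98 to 1271 against 0 to 62.7. The part of these lists in the result was not tested. With classes made within 3 depth bins, 8 members passed.

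Each nuclear complex was also set against its own mitochondrial partners. In cells high for nuclear complex I genes, the complex I mRNAs took 23.3%, 25.0%, 35.9%, 24.5%, 28.3% and 33.8% of mitochondrial mRNA UMIs in Tind1 to Tind6, against 19.7%, 20.9%, 30.9%, 21.8%, 26.4% and 31% in cells low for them. The share was higher in all 6 tumors, by 0.19 ± 0.06 on the log2 scale. The complex I mRNA share was also higher in 6 of 6 tumors in cells high for the nuclear genes of each other complex, at 28.7% ± 5.1 against 25.8% ± 5.5 for complex III, 30.1% ± 5.3 against 24.1% ± 4.7 for complex IV and 29.8% ± 4.5 against 23.7% ± 4.8 for complex V, and is thus not particular to the nuclear complex I genes. The heat-shock list was lower in 6 of 6 tumors in cells high for nuclear complex I genes, with means of 4805 against 8392 CPM of nuclear UMIs, and its part was not tested. The complex V share was lower in cells high for nuclear ATPsyn genes in 6 of 6 tumors, with a log2 ratio of -0.34 ± 0.18, and the complex IV share was lower in cells high for nuclear COX genes, with -0.09 ± 0.05. All 3 had the smallest exact sign-flip p of 0.03125 and an adjusted p of 0.075. In cells high for nuclear complex III genes, the complex III share had a log2 ratio of -0.02 ± 0.09. The ratio was below 0 in 4 tumors, with an exact sign-flip p of 0.656 (adjusted p = 0.716). The nuclear complex III genes made up 0.159% to 0.327% of nuclear UMIs in the 6 tumors, and those of complex IV 0.237% to 0.440%. Few of their UMIs were thus drawn per cell, and many cells could not be ranked by them. The complex III value therefore cannot decide whether its share follows its nuclear genes. Nor can the sizes be compared between complexes.

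Over whole tumors, there were 1.27, 2.19, 5.40, 1.81, 2.45 and 3.44 mitochondrial mRNA UMIs per UMI of the nuclear respiratory sum in Tind1 to Tind6, and 2.36 in Tgrp. Per nuclear UMI of the same complex, the tumors held 5.81 ± 2.47 mitochondrial UMIs for complex IV, 2.83 ± 2.13 for complex I, 1.27 ± 0.827 for complex III and 1.25 ± 0.616 for complex V (SD, n = 6 tumors). Tind3 was highest and Tind1 lowest for each of the 4 complexes.

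Cells were divided in the same way by 12 glycolytic genes, since the study set glycolysis against respiration. The complex I mRNAs lay lower in glycolysis-high cells. Complex I took 15.7%, 19.5%, 28.4%, 23.9%, 24.7% and 29.1% of mitochondrial mRNA UMIs in glycolysis-high cells of Tind1 to Tind6, against 27.7%, 25.1%, 35.5%, 24.6%, 29.0% and 34.0% in glycolysis-low cells. The share was lower in 6 of 6 tumors, with a log2 ratio of -0.33 ± 0.26, largest in size in Tind1 and smallest in Tind4, where it was above 0 once barcodes over 50% mitochondrial UMIs were left out. Complex IV took a higher share in 6 of 6 tumors, with a log2 ratio of 0.12 ± 0.10. Total mitochondrial mRNA per nuclear UMI had a log2 ratio of -0.16 ± 0.16 (exact sign-flip p = 0.125, adjusted p = 0.25), rRNA -0.10 ± 0.22 (exact p = 0.375, adjusted p = 0.5) and the rRNA to mRNA ratio 0.06 ± 0.14 (exact p = 0.344, adjusted p = 0.5).

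In the fit over all genes 7 of 16 members passed between glycolysis-high and glycolysis-low cells, 1 higher and 6 lower, where 17.2% of the 2967 other genes passed, 10.1% higher and 7.01% lower. The 6 lower members were ND1, ND2, ND3, ND4, ND5 and ND6, so that ND4L was the only complex I mRNA that did not pass. ND1 had 673, 799, 1722, 1150.3, 917 and 2197 CPM in glycolysis-high cells of Tind1 to Tind6, against 1188, 1095, 2903, 1347, 1237 and 3524 CPM in glycolysis-low cells. It was lower in each tumor, with a log2 fold change of -0.52 ± 0.09 (edgeR, adjusted p = 0.000409). The other 5 had log2 fold changes between -0.64 ± 0.12 for ND3 and -0.31 ± 0.09 for ND4. mt:tRNA:Ser-GCT was the higher member, with 0.51 ± 0.17 (edgeR adjusted p = 0.0455), and lost the call with DESeq2 (adjusted p = 0.0852) and without Tind1 (0.162), Tind2 (0.107), Tind3 (0.0744) or Tind5 (0.0545). ND4 had adjusted p of 0.0901 without Tind3 and 0.114 without Tind6. Among cells at or under 15%, 4 members passed, with ND2, ND4 and ND5 no longer among them. With no tumor block edgeR called 0 members, 0 also at an unadjusted p under 0.05, and DESeq2 with the block called 6. Other lists moved with these classes too. The heat-shock list was higher in glycolysis-high cells in 6 of 6 tumors, at 3504 to 13163 against 2091 to 11146 CPM of nuclear UMIs. The stem cell and enteroblast markers (means 840 against 1302), the enterocyte markers (127 against 234) and the division genes (303 against 532) were lower in 6 of 6, and the enteroendocrine markers were higher in 5 of 6 (233 against 54.8). Median UMIs were lower in 5 of 6 tumors. The part of these measures was not tested. Both divisions use the same tumors and share cells, so their results are not independent.

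Nuclear genes that act on mitochondrial DNA and RNA were read from a list of 27, of which 26 symbols were found and 23 had a UMI. Between respiration-high and respiration-low cells 3 of the 7 with enough counts passed, all higher, with a median log2 fold change of 0.40 over the 7, where 34.9% of the other genes passed, 17% higher, with a median of 0.01. TFAM, which packages mitochondrial DNA, had 55.5, 38.9, 67.8, 56.6, 67.4 and 69.3 CPM in respiration-high cells of Tind1 to Tind6, against 26.9, 15.9, 14.6, 15.6, 18.7 and 75.2 CPM in respiration-low cells. It was higher in 5 tumors and lower in Tind6, with a log2 fold change of 1.01 ± 0.24 (edgeR, adjusted p = 0.00298). scu, a dehydrogenase that is also part of mitochondrial RNase P, had 0.86 ± 0.21 (edgeR adjusted p = 0.00350). It was higher in 5 tumors and lower in Tind6, with 92.4 against 108.6 CPM. mtSSB, the single-stranded DNA-binding protein of the mitochondrial replication fork, had 0.72 ± 0.18 (edgeR adjusted p = 0.00499) and was higher in all 6 tumors. Between glycolysis-high and glycolysis-low cells 0 of the 7 passed by edgeR and 0 by DESeq2, where 17.2% of the other genes passed by edgeR, and 1 had an unadjusted edgeR p under 0.05.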

How the data were processed

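Per the labels and the study's methods, the authors made 10x 3′ libraries (chemistry 3.1) and processed them with Cell Ranger 6.0.1 on Drosophila release r6.42. The deposited values are raw UMI counts for each gene in each cell, neither normalized nor filtered on mitochondrial share. A 3′ count depends on priming sites, and intervals or SDs do not cover that. Labels call the libraries separate tumors. Members, lists and tests were chosen with earlier results of these data known. All rRNAs and mRNAs are named, tRNAs from 20 UMIs, and genes of the mitochondrial RNA list where called. The genes were matched by symbol to the Ensembl annotation of release 6 for positions, and 17556 of 17619 entries matched.

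Log2 ratios per tumor used summed UMIs with 0.5 added to each sum and were tested over 6 tumors by an exact permutation test (two-sided, flipping signs). The smallest p is 0.03125, and 0.0625 without a tumor. Classes came from 200 drawn nuclear UMIs (random seed 11). UMI sums of each class and tumor were fitted with edgeR 4.0.16 (trimmed mean scaling, filterByExpr, quasi-likelihood test) in R 4.3.3, with the tumor as a block since both sums come from 1 tumor. The fits were tested on simulated data. Alternatives were DESeq2 1.42.0, other scaling, filters, depth draws, limits and leaving out each tumor. Leaving out barcodes over 50% mitochondrial UMIs was added after seeing the data. Doublets were not removed. Python 3.11.15, numpy 2.4.6, pandas 2.3.3 and matplotlib 3.10.9 were used.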

Additional observations from a re-analysis of the deposited data

Results flagged for a closer look

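Of 52 groups of 6 tumor values examined for a single tumor far from the rest (the gap to the nearest tumor over the whole range, above Dixon's critical value), 3 stood out, and chance alone would mark about 1 in 20. Tind5 had 4.13 rRNA UMIs per mRNA UMI, where the other 5 tumors had 1.93 to 2.59. Taken as the rRNA share of mitochondrial UMIs, 80.4% in Tind5 and 65.6% to 72.0% in the others, it was not flagged. In Tind6 the ND6 share of mitochondrial mRNA UMIs had a log2 ratio of 0.36 between cells over 15% and cells at or under 15% mitochondrial UMIs, where the other tumors had 0.03 to 0.15. In the same comparison the ATPase6 share had a log2 ratio of -0.66 in Tind6, where the other tumors had -0.33 to -0.19.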

How the results depend on the processing

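Under alternatives other than leaving out a tumor, 123 values that answer a comparison were counted as kept, 6 reversed, 3 fell and 1 moved. A log2 ratio was kept if its direction and side of 0.05 stayed. A share was kept within its SD over tumors, and a count of called genes within a set factor. The 3 that fell were counts of called genes. No log2 ratio had passed in the main setting, so none could lose the threshold. Of single genes 183 kept direction and side of the threshold, 13 reversed, 28 lost the threshold and 4 gained it. In the fits over all genes, dropping the tumor as replicate block left 0 mitochondrial genes called in the respiration contrast and 0 in the glycolysis contrast, against 8 and 7 with it. Cells at or under 15% gave 4 calls in the glycolysis contrast, and leaving out a tumor gave 5 to 9 in the respiration contrast. The genes called with the block, trimmed mean scaling and all tumors kept their sign under all alternatives, while lrRNA, srRNA and Cyt-b were each called under 1 alternative of the respiration contrast and changed sign under others. The complex V share was 17.4% as a mean over cells at 200 UMIs, against 14.3% of summed UMIs. The log2 ratio of the nuclear respiratory sum in cells over the limit was -0.12 with a limit of 20%, and -0.027 to 0.13 without a tumor. That of rRNA between respiration classes was -0.092 to 0.090 without a tumor. The complex III share in cells high for nuclear complex III genes had 0.013 without barcodes that Tind4 and Tind5 share, 0.017 with another seed, 0.00092 with the 25% highest and lowest cells, 0.0075 within depth bins, 0.036 without barcodes over 50%, and -0.042 to 0.0048 without a tumor. Signs of genes not called turned as follows. With library size only, the respiration log2 fold changes were 0.20 for CoI, 0.13 for CoIII, 0.017 for ND4L, 0.026 for lrRNA and 0.050 for srRNA, and the glycolysis one of CoI was -0.022. With no replicate block CoI had -0.0047 between glycolysis classes. Among cells at or under 15%, CoI had 0.018 between respiration classes, and ND4L, lrRNA and srRNA had 0.045, 0.043 and 0.14 between glycolysis classes. Within depth bins ND4L had 0.0071, and without shared barcodes lrRNA had 0.0051, both between glycolysis classes. Without a tumor the respiration ranges were -0.21 to 0.015 for CoI and -0.082 to 0.10 for Cyt-b. The glycolysis ranges were -0.10 to 0.11 for CoI, -0.031 to 0.13 for ATPase6, -0.054 to 0.17 for CoIII, -0.18 to 0.090 for ND4L, -0.11 to 0.062 for lrRNA and -0.14 to 0.0069 for srRNA. The cause was not tested. With 5 tumors the exact test cannot go below 0.0625, and depth limits the 6 tRNAs without a UMI and the classes of Tind3, where 407 of 717 cells could be used.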
